A study of Mus musculus with 847 samples.

Results

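The ependymal cilia genes are 8 genes chosen by name, Foxj1, Ccdc153, Tmem212, Dynlrb2, Rsph1, Dnah11, Ak7 and Spag17, and all 8 are among the 21076 genes of the deposited count table. They were followed across RNA sequencing libraries of 15 brain regions from 59 untreated mice of the inbred strain C57BL/6JN. The regions were Subventricular zone, Choroid Plexus, Corpus callosum, Hypothalamus, Thalamus, Medulla, Pons, Caudate putamen, Olfactory bulb, Cerebellum, Hippocampus (anterior), Hippocampus (posterior), Motor cortex, Entorhinal cortex and Visual Cortex. There were 25 females, 5 each at 3, 12, 15, 18 and 21 months, and 34 males, 5 each at 3, 12, 15, 18 and 26 months, 6 at 21 months and 3 at 28 months. At 26 and 28 months all mice were males, so sex and old age are tied at those ages. Mouse number is tied to age as well: mice 1 to 15 were 12 or 26 months old, mice 16 to 56 were 3, 15, 18 or 21 months old, and mice 57 to 59 were 28 months old. Each library is RNA of a homogenised tissue piece, so fewer ciliated cells and less RNA per cell cannot be told apart. Subventricular zone, which holds the wall of the lateral ventricle, and Choroid Plexus, which lies in the ventricle, were taken as the ventricle-lining regions, and each was compared with the 13 others.

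Ependymal cells form the single cell layer that lines the brain ventricles, and each carries a tuft of motile cilia that beats to move cerebrospinal fluid. A motile cilium has a ring of microtubule doublets around a central pair. Dynein motors slide the doublets, radial spokes link them to the central pair, and the forkhead factor Foxj1, together with RFX factors that bind X-box sites, turns on the genes for these parts. Rsph1 is a protein of the radial spoke head, Dnah11 a heavy chain of the outer dynein arm, Dynlrb2 a roadblock light chain of dynein, Spag17 a central pair protein and Ak7 an adenylate kinase of motile cilia. Ccdc153, a coiled-coil protein, and Tmem212, a transmembrane protein, are used as markers of ependymal cells.

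RefSeq promoter windows on GRCm38.p6 were available for 6 of the 8 members and were read because the members' levels move together across libraries. Each window runs from 250 to 31 bases before the gene's start and is 220 bases long. The letters searched, on both strands, were GTTGCC (one arm of an X-box), GTTGCC followed after 3 to 6 bases by AAC (a fuller X-box, which contains that arm) and TGTTTA (a forkhead core). GTTGCC was found in 2 of the 6 windows, those of Ccdc153 and Dynlrb2, and in 8.96% of 32851 windows of all genes. In both, the fuller pair was present, which 0.795% of all windows hold. TGTTTA was found in 4 of the 6, those of Ak7, Dnah11, Spag17 and Tmem212, and in 11.0% of all windows. The windows of Ccdc153 (chr9:44240427-44240646, plus strand) and Dynlrb2 (chr8:116504765-116504984, plus strand) are shown as those with the X-box letters, and that of Tmem212 (chr3:27896399-27896618, minus strand) as one with the forkhead letters. They are written 5′ to 3′ on the gene's strand, with the matches in capitals, which begin 152, 51 and 51 bases before the start. A match is a description of the letters, not a binding site.
Ccdc153: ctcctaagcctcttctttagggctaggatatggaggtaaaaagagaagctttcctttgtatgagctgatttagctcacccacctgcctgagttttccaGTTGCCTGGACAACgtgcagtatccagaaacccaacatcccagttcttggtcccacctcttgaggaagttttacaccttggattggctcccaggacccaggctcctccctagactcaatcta
Dynlrb2: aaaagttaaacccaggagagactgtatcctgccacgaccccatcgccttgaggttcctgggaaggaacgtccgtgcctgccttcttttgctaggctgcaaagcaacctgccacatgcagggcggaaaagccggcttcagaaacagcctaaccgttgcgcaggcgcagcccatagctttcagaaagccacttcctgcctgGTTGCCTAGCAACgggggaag
Tmem212: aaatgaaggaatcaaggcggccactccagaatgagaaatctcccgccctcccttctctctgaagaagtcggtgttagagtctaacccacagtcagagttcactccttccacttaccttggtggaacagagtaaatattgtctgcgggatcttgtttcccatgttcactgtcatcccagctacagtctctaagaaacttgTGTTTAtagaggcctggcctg

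The shallowest library held 481444 reads, the median library 6716032 and the deepest 26756735. Values are given as CPM, the reads of a gene per 1000000 reads of its library. Regions had 51 to 59 libraries, 1 per mouse. An earlier look at these data had put 3 libraries in doubt, Subventricular zone of mouse 3, Hippocampus (posterior) of mouse 38 and Entorhinal cortex of mouse 52, and the counts of members called for level and age were the same without them. Marker lists were set beside the tissue labels. All 12 genes of a choroid plexus epithelium list were higher in Choroid Plexus than in the 13 regions, beside 42.8% of all genes. All 8 genes of a neuroblast and proliferation list were higher in Subventricular zone, beside 42.4% of all genes. That list does not mark Subventricular zone alone. The medians per age of its summed CPM ran from 541 to 620 in Olfactory bulb and from 259 to 333 in Subventricular zone. The same choroid plexus list was also higher in Subventricular zone, with 12 of 12 genes. Ttr, the transthyretin gene that defines that epithelium, had a median of 5464 CPM in Choroid Plexus and 240 CPM in Subventricular zone, where it ran from 0.517 to 7982 CPM.

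Subventricular zone had the highest level of 7 of the 8 members, and Dnah11 was the exception. Foxj1 in Subventricular zone had a lowest value of 15.8, a median of 45.4 and a highest value of 130 CPM over 55 libraries. In Choroid Plexus it had 4.91, 20.2 and 37.9 CPM over 57 libraries. The 2 ranges overlapped, although 8 of the 13 other regions lay wholly below the lowest Subventricular zone library. Corpus callosum (median 16.1 CPM), Hypothalamus (14.6 CPM) and Thalamus (7.94 CPM) followed, and Visual Cortex was lowest at 0.452 CPM.

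Both markers of ependymal cells were closer to an all-or-none pattern. Tmem212 in Subventricular zone had 14.5, 44.5 and 121 CPM as its lowest, median and highest values, and in Choroid Plexus 1.35, 8.80 and 16.1 CPM. Its median was 0 in 10 regions, and in Visual Cortex no read was found in any of 56 libraries. Ccdc153 in Subventricular zone had 13.3, 36.9 and 101 CPM, and in Choroid Plexus 3.99, 7.99 and 14.8 CPM. Its median was 0 in 8 regions, and Entorhinal cortex, with a median of 0.805 CPM and reads in all but 2 of 51 libraries, stood above them. For both genes Hypothalamus and Corpus callosum had medians at or above that of Choroid Plexus.

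The axonemal genes Rsph1, Dynlrb2, Ak7 and Spag17 were also highest in Subventricular zone, followed by Choroid Plexus in mean log2 CPM. Rsph1 had 12.9, 28.7 and 70.0 CPM as its lowest, median and highest values in Subventricular zone. Its values in Choroid Plexus were 5.91, 16.1 and 28.8 CPM, and in Hypothalamus 1.54, 12.4 and 35.2 CPM. These 3 regions overlapped. Dynlrb2 had 10.2, 26.5 and 61.3 CPM in Subventricular zone against 2.79, 11.1 and 26.8 CPM in Choroid Plexus, and Ak7 had 5.53, 18.3 and 44.1 CPM against 1.45, 6.16 and 11.1 CPM. Spag17 had 4.25, 10.2 and 24.8 CPM in Subventricular zone against 0.849, 3.50 and 9.06 CPM in Choroid Plexus. For each of these genes the upper Choroid Plexus libraries overlapped the lower Subventricular zone libraries. When regions were ordered by mean log2 CPM, only 1 or 2 of the 14 neighbouring steps per member were larger than the pooled SD of the libraries, and the step below Subventricular zone was one of them for every member.

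**Figure D1:**
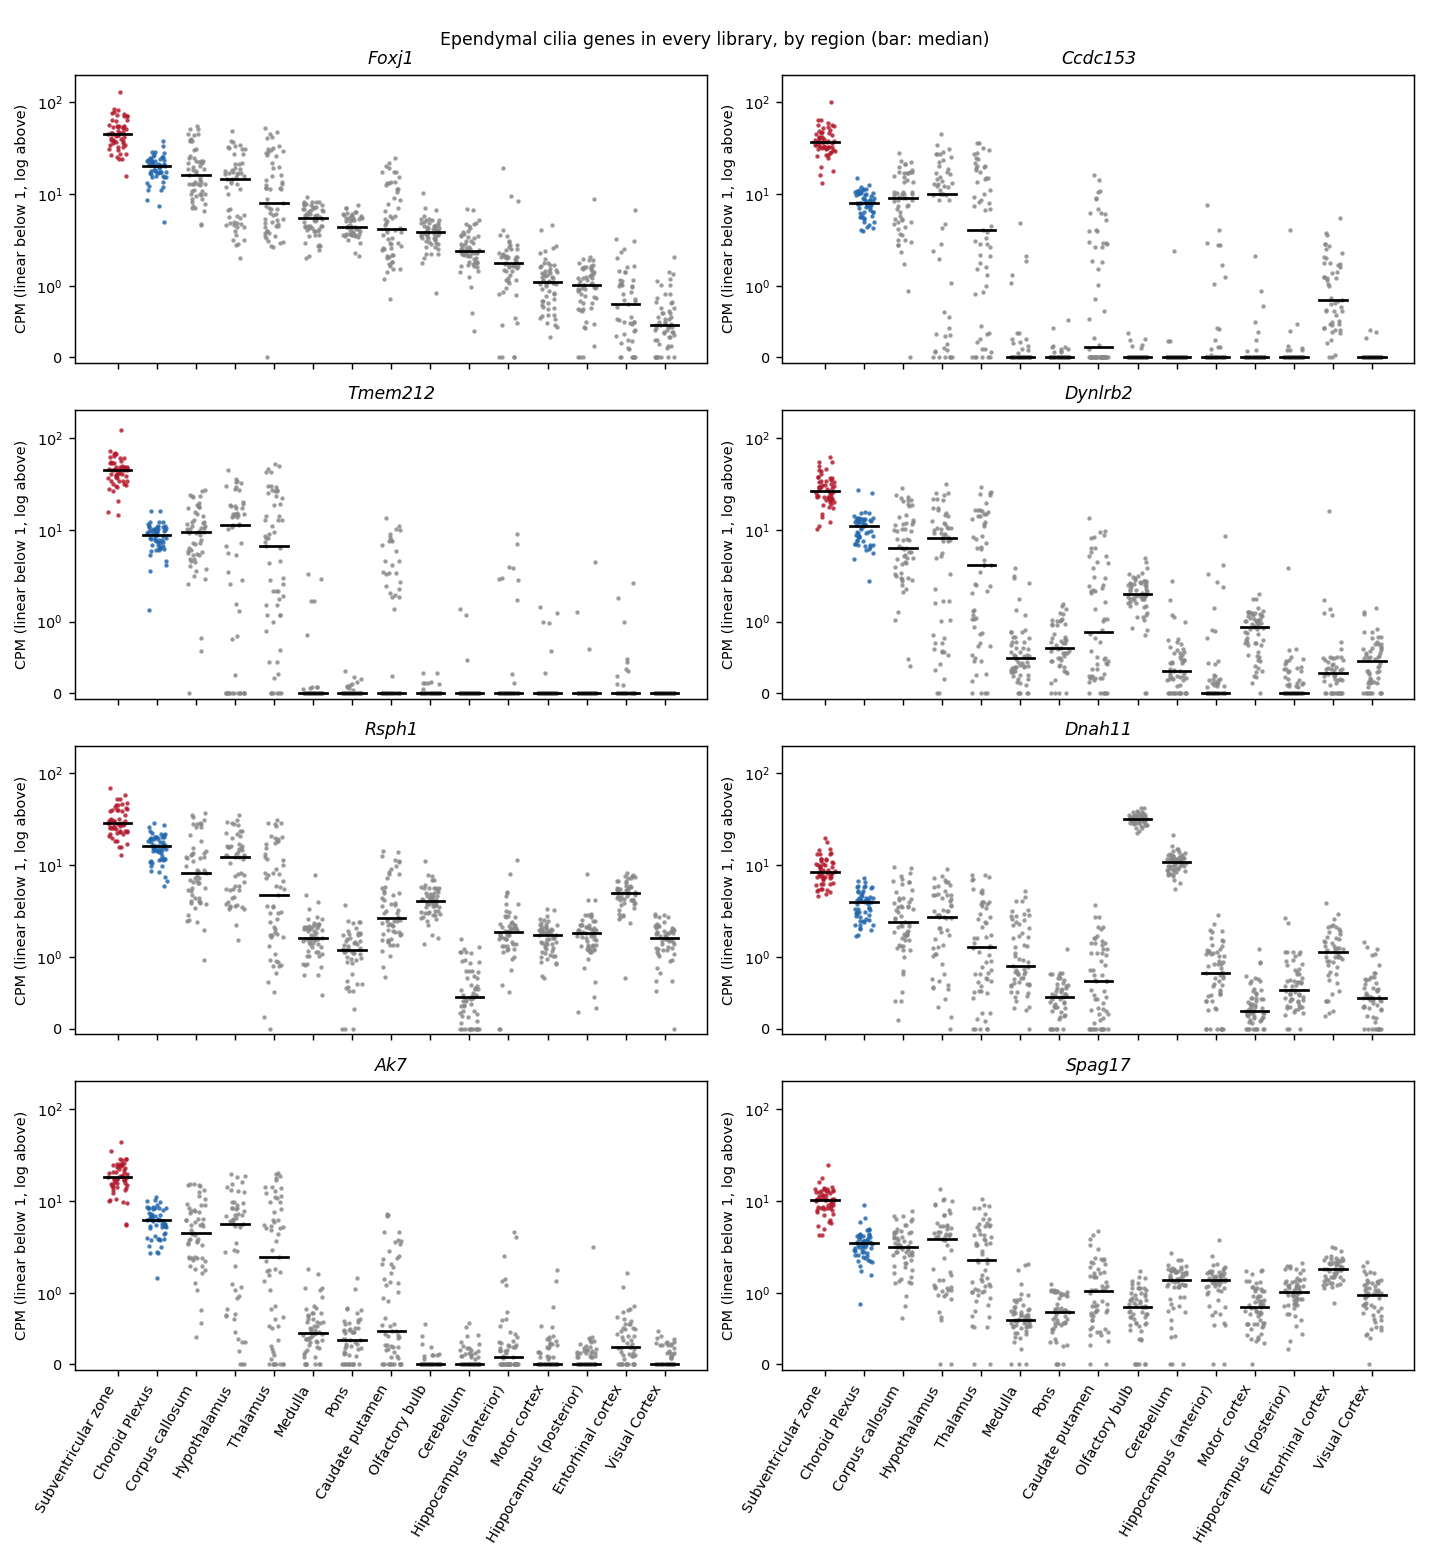
Level of each ependymal cilia gene in every library, with regions on the horizontal axis and CPM on the vertical axis (linear below 1, logarithmic above). Points are libraries, bars are medians, red is Subventricular zone and blue Choroid Plexus; Foxj1 falls from a median of 45.4 CPM in Subventricular zone to 0.452 CPM in Visual Cortex, and Dnah11 is highest in Olfactory bulb at 32.2 CPM.

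Dnah11 had another regional order. In Olfactory bulb its lowest, median and highest values were 22.5, 32.2 and 42.5 CPM, in Cerebellum 5.47, 11.0 and 21.3 CPM, and in Subventricular zone 4.58, 8.45 and 19.8 CPM. Every Olfactory bulb library lay above every Subventricular zone library, while Cerebellum and Subventricular zone overlapped. In Olfactory bulb and Cerebellum the medians of Ccdc153, Tmem212 and Ak7 were 0 CPM. In edgeR's quasi-likelihood test of these region pairs, which were chosen after the levels were seen, Dnah11 was higher in Olfactory bulb than in Subventricular zone by 1.80 ± 0.06 (log2, SE; adjusted p = 7.51e-57), and the other 7 members were lower, Tmem212 by the widest margin at -9.68. Of all genes tested in that comparison 88.2% differed. Olfactory bulb held 12 reads of Tmem212, 11 of Ccdc153 and 15 of Ak7 over all 58 libraries. These genes passed the filter on low counts through Subventricular zone, where they are high. The sizes of their differences therefore rest on almost no reads in Olfactory bulb. Between Cerebellum and Medulla, where 91.9% of genes differed, Dnah11 was higher in Cerebellum by 2.92 ± 0.11, whereas Foxj1 (-1.17 ± 0.10) and Rsph1 (-2.01 ± 0.14) were lower and the other 5 members did not pass the filter on low counts. Dnah11 (chr12:117877982-118199043, minus strand, GRCm38, GENCODE M21) shares 642 exonic bases, 4.44% of its exonic length, with Cdca7l on the plus strand, and unstranded reads from the shared bases cannot be told apart. Cdca7l had a median of 16.0 CPM in Olfactory bulb, 5.37 in Subventricular zone and 1.97 in Cerebellum, and its part in the Dnah11 values was not tested. Spag17 shares 820 exonic bases (9.66%) with Wdr3 and 516 with an antisense transcript, and the other 6 members share none. Mean log2 CPM of Wdr3 ran from 4.44 in Medulla to 5.24 in Cerebellum, and that of Spag17 from 0.18 in Medulla to 3.37 in Subventricular zone. The part of Wdr3 reads in the Spag17 values was not tested.

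**Figure D2:**
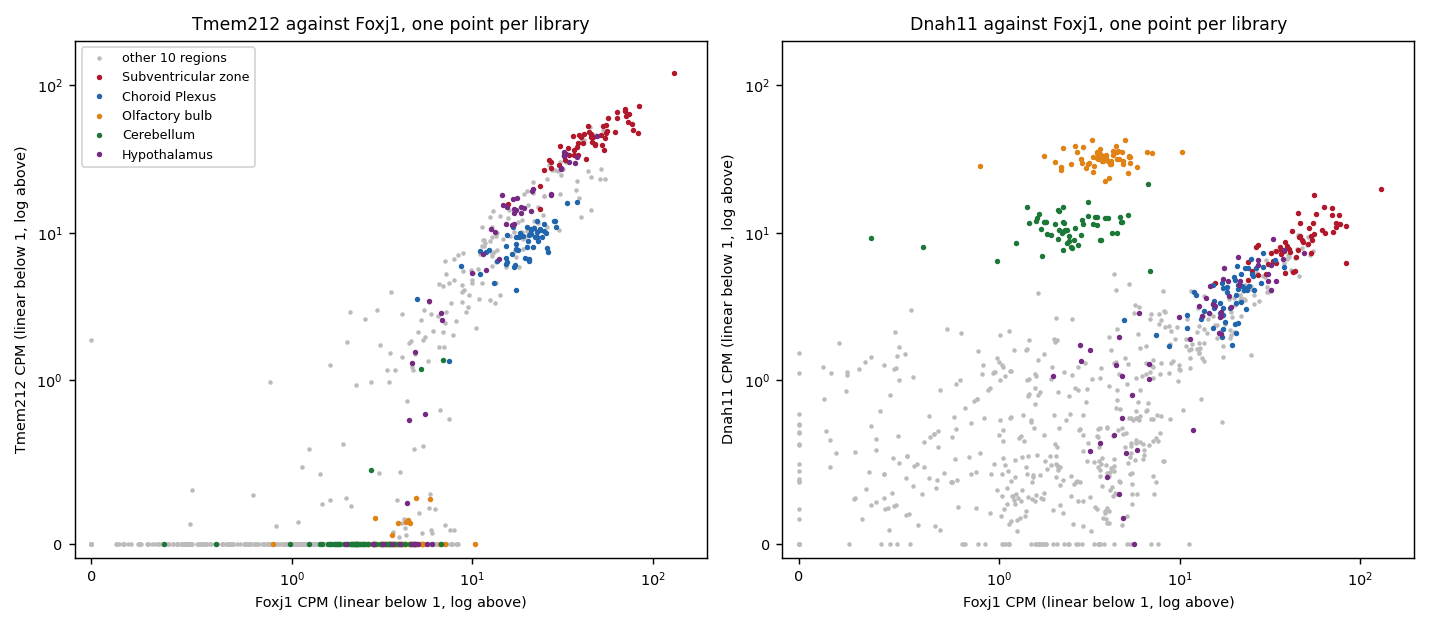
Tmem212 (left) and Dnah11 (right) against Foxj1, all in CPM on axes that are linear below 1 and logarithmic above, with 1 point per library. Tmem212 rises with Foxj1 across regions, whereas Dnah11 in Olfactory bulb (orange, median 32.2 CPM) and Cerebellum (green, median 11.0 CPM) is high at low Foxj1.

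Levels of different genes were compared only per exonic length. In Subventricular zone the median CPM per kilobase of exon was 62.2 for Tmem212 and 47.6 for Dynlrb2, both short genes. It lay between 17.3 and 20.9 for Foxj1, Ccdc153 and Rsph1, at 4.34 for Ak7, at 1.21 for Spag17 and at 0.585 for Dnah11. The order of levels per length was thus almost the reverse of the order of exonic length, which runs from 556 bases in Dynlrb2 to 14458 bases in Dnah11.

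The first comparison asked whether the members are higher in each ventricle-lining region than in the 13 others. In a joint edgeR model of all libraries with sex and age per region, 8 of 8 members were higher in Subventricular zone, where 42.4% of the 15069 genes tested were higher and 80.7% differed. The log2 difference was largest for Tmem212 (6.96 ± 0.13, SE) and Ccdc153 (6.54 ± 0.12) and smallest for Dnah11 (2.43 ± 0.08) and Spag17 (2.82 ± 0.07), and the largest adjusted p was 1.18e-145. The median difference was 4.08 over the members and 0.0093 over all genes. In Choroid Plexus 8 of 8 members were again higher, beside 42.8% of all genes, with differences from 1.25 ± 0.09 (Dnah11) and 1.25 ± 0.08 (Spag17) to 4.65 ± 0.18 (Tmem212) and a median of 2.77. These log2 differences average over regions, so regions with almost no reads weigh heavily. The ratio of mean CPM to the mean of the 13 regional means was smaller, 15.4 for Tmem212, 14.5 for Ccdc153, 12.0 for Ak7, 11.0 for Dynlrb2, 7.97 for Foxj1, 7.09 for Rsph1, 6.35 for Spag17 and 2.05 for Dnah11 in Subventricular zone. In Choroid Plexus it ran from 2.14 for Spag17 to 4.14 for Dynlrb2, and for Dnah11 it was 0.874, below 1 and opposite in direction to the log2 difference, since the Olfactory bulb and Cerebellum means enter the average.

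**Figure D3:**
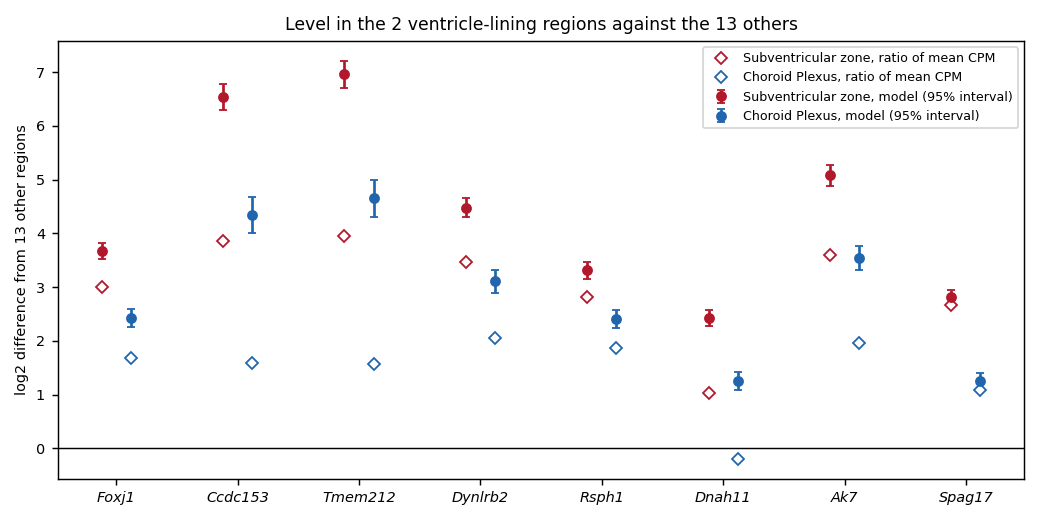
Difference of each member between a ventricle-lining region (red Subventricular zone, blue Choroid Plexus) and the 13 other regions on a log2 scale. Filled points are the joint model with its 95% interval, and open diamonds are ratios of mean CPM; only the Dnah11 ratio in Choroid Plexus (0.874) lies below the zero line.

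Other genes of motile cilia showed the same regional difference. Of 57 genes in 6 lists that hold no member, 56 were tested. In Subventricular zone 56 of 56 were higher, with a median log2 difference of 2.40. Dynein arm subunits (11 of 11) were led by Dnah12 at 4.98 ± 0.08, radial spoke and central pair genes (12 of 12) by Cfap221 at 4.72 ± 0.11, and tektins and inner microtubule proteins (10 of 10) by Cfap52 at 4.38 ± 0.11. Rulers and nexin-dynein genes (6 of 6) were led by Drc7 at 4.87 ± 0.14, assembly factors (9 of 9) by Armc4 at 4.24 ± 0.10, and genes of transcription and centriole amplification (8 of 8) by Deup1, which builds the deuterosome, at 2.76 ± 0.10. In Choroid Plexus 53 were higher and 2 lower with a median of 1.29. Drc7 (5.57 ± 0.11) and Gmnc (3.16 ± 0.11), a regulator of multiciliated cell fate, were further above the 13 regions there than in Subventricular zone. A list of 10 primary cilium genes had 5 higher and 2 lower in Subventricular zone and 4 higher and 2 lower in Choroid Plexus, with medians of 0.035 and 0.019. Beside the members, all 8 genes of a striatal neuron list (median 3.30) and 12 of 12 choroid plexus genes (median 4.01) were also higher in Subventricular zone. Their part in the result was not tested.

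Choroid Plexus did not stand above every other region. In tests of region pairs, Subventricular zone was higher for 8 of 8 members than Choroid Plexus (38.1% of genes higher), than Hypothalamus (43.7%) and than Corpus callosum (38.8%). The gap to Choroid Plexus was 2.30 ± 0.09 for Tmem212 and 2.19 ± 0.09 for Ccdc153 but 0.91 ± 0.09 for Rsph1. Between Choroid Plexus and Corpus callosum, where 81.0% of genes differed, 3 of 8 members were called. Rsph1 was higher in Choroid Plexus by 0.43 ± 0.15, and Ccdc153 (-0.35 ± 0.14) and Tmem212 (-0.30 ± 0.14) were lower. With mouse as a block, which pairs the regions of 1 animal (80.7% of genes differing), Rsph1 (0.66 ± 0.18) and Dynlrb2 (0.39 ± 0.18, adjusted p = 0.0454) were called, and Ccdc153 (adjusted p = 0.238) and Tmem212 (0.365) were not. Between Choroid Plexus and Hypothalamus, with 83.6% of genes differing, Foxj1 (0.43 ± 0.15), Rsph1 (0.38 ± 0.14) and Dnah11 (0.35 ± 0.14) were higher in Choroid Plexus. Dynlrb2 joined them with the block (0.62 ± 0.21), where 82.9% of genes differed. Ttr in Hypothalamus had a median of 2.61 and a highest value of 68.4 CPM. Its mean log2 CPM was 12.2 in Choroid Plexus, 7.35 in Corpus callosum and 1.78 in Hypothalamus. The part of choroid plexus tissue in these levels was not tested.

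The proportions among members also differed between the ventricle-lining regions. Within the same mouse, the log2 ratio of Tmem212 to Rsph1 was higher in Subventricular zone than in Choroid Plexus by 1.36 ± 0.37 (SD, 53 mice), in 53 of 53 mice. For Ccdc153 to Rsph1 the difference was 1.23 ± 0.41 (53 of 53 mice), for Dynlrb2 to Rsph1 0.43 ± 0.35 (47 of 53) and for Foxj1 to Rsph1 0.32 ± 0.30 (43 of 53). Each had a 2-sided permutation p of 1e-05, the smallest that 100000 sign changes can give, and an adjusted p of 1e-05 over the 4 ratios. Relative to the spoke head gene, Choroid Plexus thus carried less of both marker genes, in every mouse measured. Rsph1 had the smallest gap between these regions of all members (0.91 ± 0.09 in the pair test). The direction of the 4 differences therefore follows from the choice of denominator, and they restate those gaps within mice. Ratios to other members were not computed.

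Within Subventricular zone the members rose and fell together. Over 55 libraries Foxj1 correlated with the other 7 members between r = 0.750 (Dnah11, rho = 0.753) and r = 0.913 (Ccdc153, rho = 0.897) on the log2 scale. Without the 2 libraries farthest from the Foxj1 median, the same pairs had r = 0.688 and 0.879. All 7 had a permutation p of 1e-05, the smallest possible, and an adjusted p of 1.71e-05 over the 29 relations computed. Mice numbered 16 to 56 and mice numbered 1 to 15, a split by the labels' mouse number, gave 0.839 and 0.644 for Dnah11 and 0.891 and 0.964 for Ccdc153. CPM values of a library share its total, so part of such a correlation can come from the library as a whole. The lowest Subventricular zone library, that of mouse 3, had Foxj1 at 15.8 and Tmem212 at 15.8 CPM. The highest, that of mouse 44, a female of 21 months, had 130 and 121 CPM. The library of mouse 44 was the highest for all 8 members, and that of mouse 3 the lowest for 5, with the others lowest in mouse 29, a male of 3 months.

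Over all 28 pairs of members, the median r was 0.826 in Subventricular zone and 0.697 in Choroid Plexus. It was 0.928 in Hypothalamus, 0.927 in Thalamus and 0.913 in Corpus callosum, where levels ran over a wider range. In Olfactory bulb (0.133), Pons (0.130) and Cerebellum (0.115) it was near 0, and in Visual Cortex it was 0.077 over 21 pairs, without Tmem212. In each of these regions 2 or 3 members had a median of 0 CPM, so libraries without reads enter these values. In Choroid Plexus the weakest pair was Foxj1 with Spag17 (r = 0.299, rho = 0.396), and Foxj1 followed Ttr (r = 0.896, rho = 0.847, permutation p = 1e-05 for both, 57 libraries, r = 0.834 without the 2 farthest). That relation was not particular to Choroid Plexus. In the other regions r of Ttr with Foxj1 ran from 0.885 in Caudate putamen to -0.088 in Visual Cortex. It was 0.687 in Corpus callosum and 0.570 in Subventricular zone. The genes most like the members' mean over the 55 Subventricular zone libraries, among 14181 compared, were Rsph4a (r = 0.960), Cdhr4 (0.953), Dnali1 (0.949), Cfap43, Tm4sf1, Cfap126, Rgs22, Drc3, Dnah12 and Iqca (0.931). Over the 15 regional means they were Dnali1 (0.993), Ttc21a, Ccdc170, Ccdc146, Dnaaf3, Armc3, Lrrc34, Wdr63, Fam216b and Sntn (0.979). Rsph4a and Dnah12 code for a radial spoke head protein and a dynein heavy chain, and Dnali1 for a dynein light intermediate chain. These correlations are descriptions across libraries or regions, and regions are not replicates.

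The second comparison asked whether the members change with age. In Subventricular zone 0 of 8 did by edgeR in a model of age in months and sex, where 8.52% of 14701 genes were called. None had an unadjusted p under 0.05, and DESeq2 also called 0. Foxj1 had 23.8, 38.3 and 77.4 CPM as lowest, median and highest values at 3 months (10 mice), 26.4, 38.5 and 130 CPM at 21 months (10 mice) and 41.8, 46.2 and 63.2 CPM at 28 months (3 mice). The ages overlapped throughout. Slopes ran from 0.00082 (Foxj1) to 0.012 (Tmem212) log2 per month, and their 95% intervals, extended over the 25 months from 3 to 28, allowed changes between 0.722-fold and 1.67-fold. The choroid plexus content of these libraries differed by age. Median summed CPM of the choroid plexus list ran from 431 to 1016 at 3 to 21 months. It was 9093 at 26 months (4 mice) and 4153 at 28 months (3 mice), with ranges that overlapped those of younger mice. With that list as a covariate 0 of 8 members were called, and its part in the slopes was not tested further.

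In Choroid Plexus, where 20.8% of 14648 genes changed with age, 0 of 8 members were called by edgeR, 0 had an unadjusted p under 0.05, and DESeq2 called 0. Foxj1 had 8.69, 19.1 and 25.9 CPM at 3 months (10 mice), 13.7, 24.2 and 33.6 CPM at 21 months (11 mice) and 22.9, 23.5 and 28.9 CPM at 28 months (3 mice). The 28-month values overlapped those at 3 and 21 months and lay above all those at 12 and 26 months. Slopes ran from -0.0062 (Spag17) to 0.011 (Foxj1), and the intervals allowed between 0.701-fold and 1.58-fold over 25 months. Of the 55 motile cilia genes tested there, 1 fell, Rfx3 (-0.019 ± 0.006 per month, adjusted p = 0.0274), an X-box factor, and of the 56 in Subventricular zone 0 were called. Whether slopes differ from those of the 13 other regions was tested in the joint model. It called 0 members for Subventricular zone (1.84% of genes) and 0 for Choroid Plexus (4.94%), none with an unadjusted p under 0.05 in edgeR. For Tmem212 edgeR gave no usable standard error, so this covers the other 7. With limma-voom 0 of 8 were called, and the Tmem212 difference was -0.00035 ± 0.022 log2 per month in Subventricular zone and -0.0057 ± 0.026 in Choroid Plexus.

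**Figure D4:**
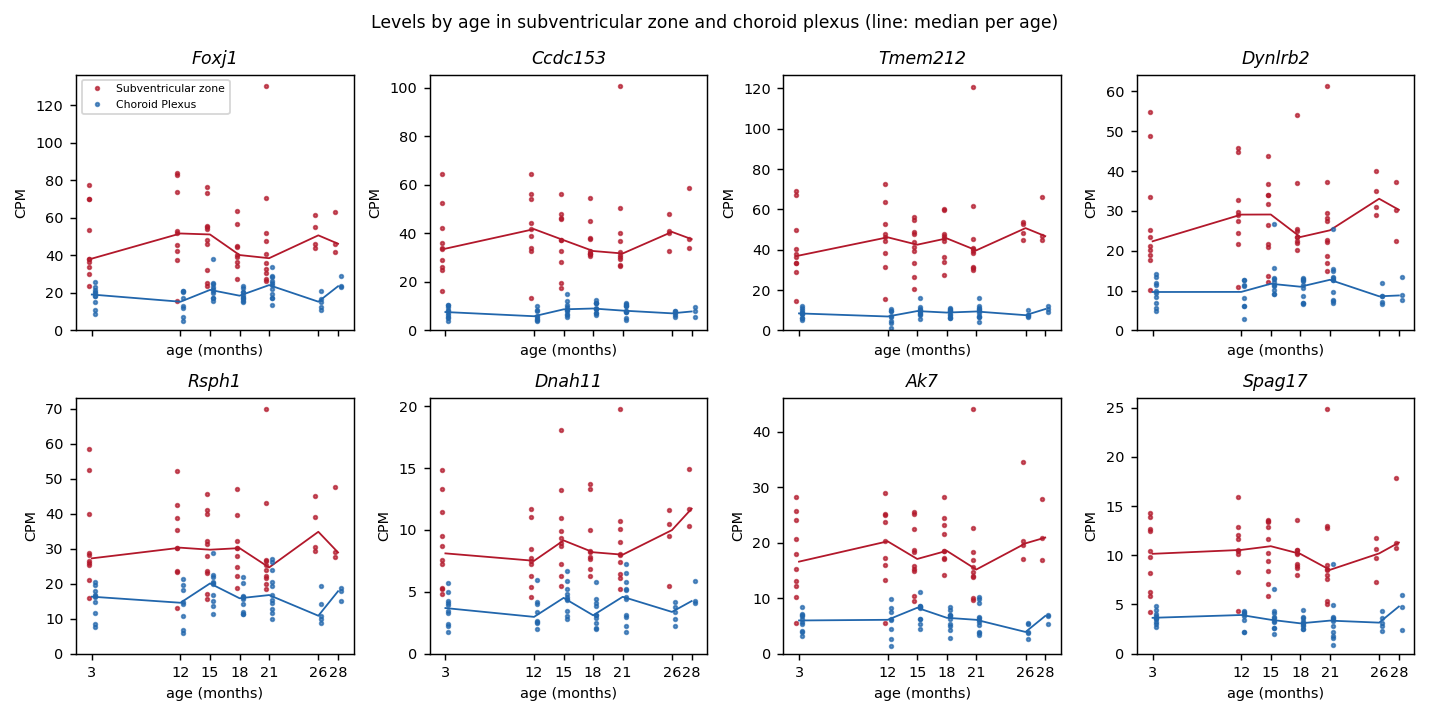
CPM of each member against age in months in Subventricular zone (red) and Choroid Plexus (blue), with 1 point per library and lines through the median of each age. No member was called in either region; for Foxj1 in Subventricular zone the median was 38.3 CPM at 3 months and 46.2 CPM at 28 months.

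Over all 15 regions, 89 of 120 member and region pairs passed the filter on low counts and 6 were called for age, beside 11.5% of all gene and region pairs. Foxj1 rose in Cerebellum by 0.036 ± 0.008 log2 per month (adjusted p = 0.000818), 1.87-fold over 25 months, where 10.5% of genes rose. Its lowest, median and highest values there were 0.363, 2.22 and 2.93 CPM at 3 months (10 mice), 0.992, 2.25 and 3.87 CPM at 21 months (11 mice), 1.63, 4.68 and 6.67 CPM at 26 months (5 mice) and 2.45, 4.24 and 4.78 CPM at 28 months (3 mice). The higher levels were thus at 26 and 28 months, ages with males only, and the ranges still overlapped. Among males alone the rise was called too. In mice numbered 16 to 56 alone, which leaves out the 12-, 26- and 28-month mice, it was 0.020, with an adjusted p of 0.231. The only other members tested in Cerebellum, Dnah11 and Spag17, were not called. The median of Ttr in Cerebellum was 0 at every age.

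Foxj1, Ccdc153, Tmem212 and Dynlrb2 were called as rising in Hippocampus (anterior), 4 of 8 members beside 6.89% of genes, and these calls rested on 1 library. Slopes were 0.067 ± 0.019 for Foxj1 (adjusted p = 0.0118), 0.15 ± 0.04 for Ccdc153 (0.0065), 0.15 ± 0.04 for Tmem212 (0.0114) and 0.12 ± 0.03 for Dynlrb2 (0.00924). Without mouse 5, a male of 26 months, 0 of the 7 members still tested were called, and the adjusted p-values of these 4 ran from 0.159 to 0.356. That library had Foxj1 at 19.0, Tmem212 at 9.02 and Ttr at 4032 CPM. The median of Foxj1 lay between 1.33 CPM at 3 months and 2.17 CPM at 21 months, and that of Tmem212 was 0 at 6 of 7 ages. In the same fit 8 of 9 choroid plexus genes tested rose, and without mouse 5 they numbered 0 of 8. With the choroid plexus list as a covariate 0 members were called, and whether the list's change accounts for the members' was not tested further.

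In Olfactory bulb Rsph1 fell by 0.026 ± 0.008 log2 per month (adjusted p = 0.021), where 9.01% of genes fell. It had 2.26, 4.84 and 11.1 CPM as its lowest, median and highest values at 3 months (10 mice), 1.63, 3.44 and 4.43 CPM at 21 months (10 mice) and 3.09, 3.50 and 3.53 CPM at 28 months (3 mice). The ranges at 21 and 28 months overlapped that at 3 months, and the 28-month values lay below those at 26 months. The call was lost without mouse 49 (-0.017, adjusted p = 0.133) or without mouse 29. It was also lost in males alone (-0.020, adjusted p = 0.183) and with the choroid plexus list as a covariate (-0.019, adjusted p = 0.0891). In mice numbered 1 to 15, which compares only 12 with 26 months, the slope was 0.018, in the opposite direction (adjusted p = 0.781). Dnah11, the most abundant member there in CPM, had medians between 29.3 CPM at 3 months and 35.3 CPM at 28 months and was not called.

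**Figure D5:**
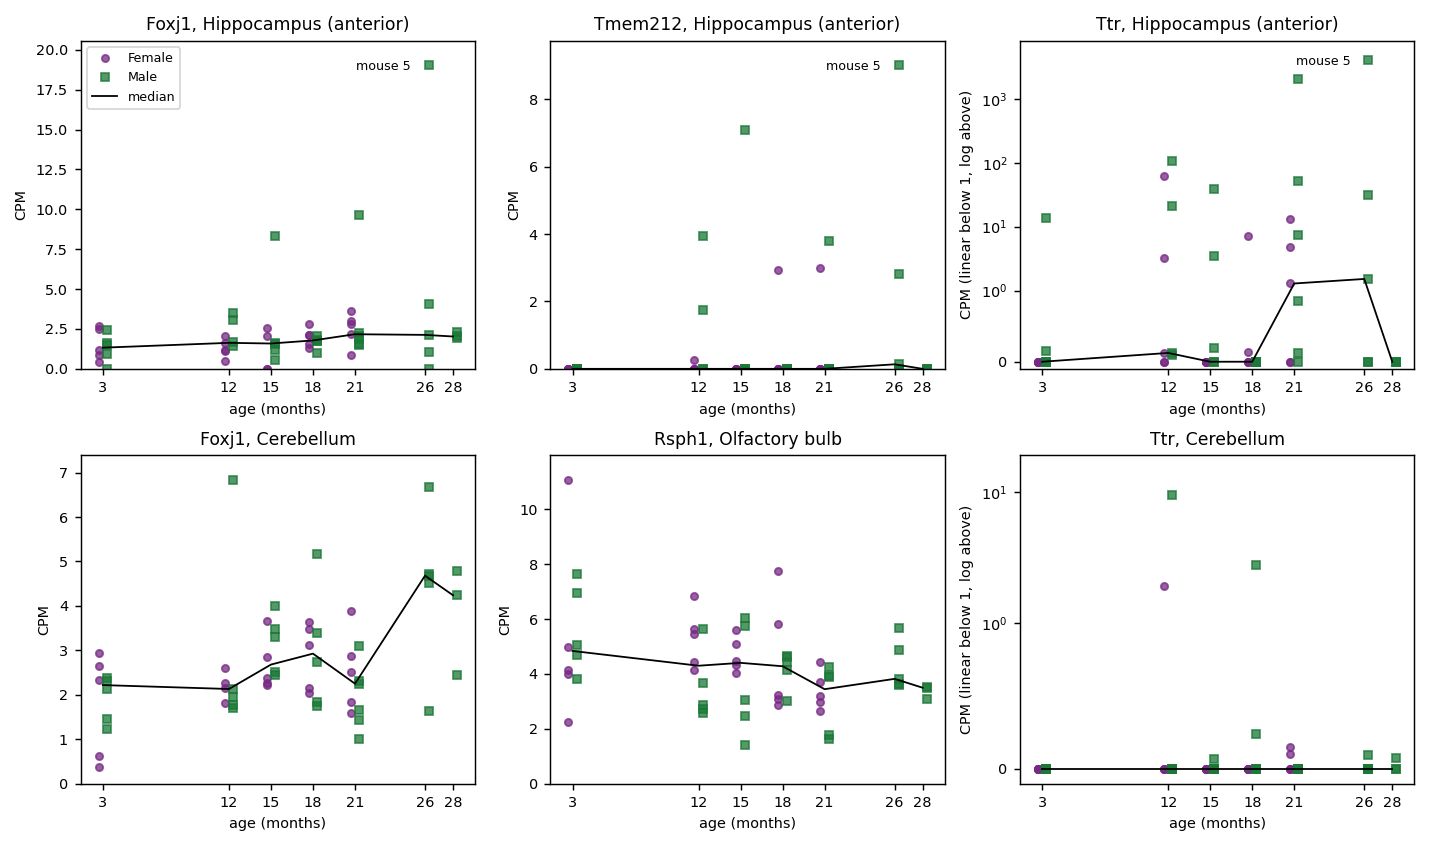
CPM against age in months for the members called outside the ventricle-lining regions and for Ttr, with circles for females, squares for males and a line through the median of each age. Mouse 5 in Hippocampus (anterior) has Foxj1 at 19.0 and Ttr at 4032 CPM, above all other libraries of that region; Ttr axes are linear below 1 and logarithmic above.

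Between the sexes, at the ages from 3 to 21 months that both have, 1 of 86 member and region pairs tested was called, beside 3.01% of all gene and region pairs. Foxj1 was lower in males in Hippocampus (posterior) by 0.98 ± 0.24 on the log2 scale, a value of -0.98 (edgeR adjusted p = 0.0229), where 1.8% of genes were lower. Females had 0.474, 1.32 and 8.75 CPM (24 mice) and males 0, 0.840 and 1.61 CPM (26 mice), which overlapped at a median count of 6 reads. The size of the difference rested partly on the doubted library of mouse 38, a 15-month female with Foxj1 at 8.75 and Ttr at 1206 CPM: without it the difference was -0.61 (adjusted p = 0.0325). In mice numbered 16 to 56 the adjusted p was 0.0917, and DESeq2 gave no adjusted p for this gene.

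In Hypothalamus the libraries of 1 age separated by sex. Among the 12-month mice, 4 females had Foxj1 between 2.83 and 4.43 CPM and 5 males between 14.0 and 27.1 CPM. Tmem212 ran from 0 to 0.760 CPM in these females and from 6.67 to 18.1 CPM in these males. All 8 members had ranges that did not overlap, and the share of all genes with such ranges was not computed. With the 12-month mice alone, edgeR called 8 of 8 members as higher in males, where 1.34% of 13837 genes were higher. The sex test over 3 to 21 months called 0 of 8 in this region. Members rise and fall together there (median r = 0.928 over member pairs), so the 8 calls are not separate results. At the other ages the sexes overlapped, and over 3 to 21 months the medians of Foxj1 were 15.0 CPM in 24 females and 14.0 CPM in 25 males. Over all ages Tmem212 had no read in 13 of 55 Hypothalamus libraries while Foxj1 kept at least 1.99 CPM in every one. Ttr in the 12-month libraries ran from 0.253 to 5.73 CPM in females and from 0.400 to 6.78 CPM in males. The labels do not say whether the 12-month tissue pieces of both sexes held the same share of ventricle wall, so sex and dissection cannot be told apart here. Whether the difference depends on age was not tested.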

How the data were processed

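The data are RNA sequencing counts, with 1 library per region and mouse. The authors deposited whole-number read counts per gene symbol. Smart-Seq2 cDNA and Nextera XT libraries came from RNeasy-purified RNA of homogenised tissue and carry no strand, per the labels' protocols. Trim Galore 0.3.7, STAR 2.5.3a, DESeq2 and the build GRCm38 are named in the submitters' processing notes. The counting program and annotation are not given in the sources used here. No columns were left unmapped. Counts carry no molecular identifiers, and the spread between mice was used as error. Library totals, from 481444 to 26756735 reads, limit low genes: in the median Visual Cortex library 3 reads are 0.476 CPM.

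Tests were edgeR 4.0.16 quasi-likelihood tests in R 4.3.3 with TMM factors and filterByExpr, 2-sided, with Benjamini-Hochberg adjustment over all genes tested and a threshold of 0.05. The region levels and slope differences came from 1 joint fit of all libraries with sex and age per region. Age and sex were tested in each region alone. Alternatives used DESeq2 1.42.0 and limma 3.58.1. Log2 CPM for correlations and ratios had 0.5 CPM added. Regions of 1 mouse are paired by the labels' mouse number, which marks the same animal, and the joint edgeR fit has no mouse term. In simulated data for age in Subventricular zone, 200 of 14610 genes were given a slope of 0.05 log2 per month. Of these 98.5% were recovered, and 4.4% of calls were false. That slope lies above 0.030, the highest bound of the members' intervals there, and recovery of smaller slopes was not simulated. For the level in Subventricular zone, 100% of 200 genes given a log2 difference of 1 among 3000 were recovered. There 6.1% of calls were false, above the 5% aimed at. Simulated libraries were independent, with the same dispersion for every gene and no mouse effect. They therefore do not test the lack of a mouse term in the joint fit. Gene positions come from GENCODE M21. Computations used Python 3.11.15 with pandas 2.3.3 and scipy 1.17.1. Named genes were all members, up to 3 genes per list with the largest change, and the 10 genes most alike on each of 2 measures. The members and lists were chosen with earlier results of these data known.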

Additional observations from a re-analysis of the deposited data

Results flagged for a closer look

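Among 31 sets of 1 gene, region and age, 8 had a highest library set apart from the rest by more than Dixon's test allows at 95%. That test assumes normally distributed values, and it was applied to CPM, which can be skewed and 0 in many libraries. How many sets it would flag by chance here is therefore not known. Where all other libraries were 0, any library with reads is flagged. In Subventricular zone at 21 months, mouse 44 had Foxj1 at 130 CPM, with the next library at 70.7 CPM. In Choroid Plexus at 15 months, mouse 26 had Foxj1 at 37.9 CPM, with the next at 25.1 CPM, and its Ttr was 10809 CPM. In Cerebellum at 12 months, mouse 3 had Foxj1 at 6.84 CPM, with the next at 2.60 CPM. Without mouse 3, the age slope of Foxj1 in Cerebellum was 0.037 log2 per month. In Hippocampus (anterior), mouse 26 at 15 months had Foxj1 at 8.32 and Tmem212 at 7.08 CPM, with Tmem212 at 0 in the other 8 libraries of that age. Mouse 5 at 26 months had Foxj1 at 19.0 CPM, with the next at 4.06 CPM. Tmem212 stood apart in mouse 6 at 12 months (3.95 CPM, next 1.73 CPM) and in mouse 55 at 18 months (2.93 CPM, all others 0).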

How the results depend on the processing

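The 8 of 8 members higher in Subventricular zone and in Choroid Plexus, the 0 of 8 changing with age in each and the 0 members with a differing slope held in every alternative run: RLE factors, no filter, other tools, males alone, mice numbered 16 to 56, without the 3 doubted libraries and, where it applied, without Hypothalamus, with covariates or with age as a factor. With the replicate block, limma-voom also gave 8, 8, 0 and 0 members for the level and slope comparisons. Leaving out each mouse in turn gave 8 to 8 members for both levels and 0 to 0 for both slope differences (limma-voom) and for age in both regions (edgeR). The 6 pairs called for age became 3 with DESeq2, 2 in males alone, and 1 in mice numbered 16 to 56 or with the choroid plexus list as a covariate. The 1 pair called for sex became 0 in mice numbered 16 to 56, 2 with the choroid plexus covariate and 8 in 12-month mice alone. With DESeq2 the count was also 0, but that pair had a log2 difference of -0.95 and no adjusted p, so its call was not judged. The 4 members rising in Hippocampus (anterior) became 1 with DESeq2, 0 in males alone, in mice numbered 16 to 56, in mice numbered 1 to 15 and with the choroid plexus covariate, and 0 to 6 when 1 mouse was left out. The age slope of Rsph1 in Olfactory bulb reversed to 0.018 in mice numbered 1 to 15, which are 12 or 26 months old only. Causes of these changes were not tested beyond the fewer mice and covariates the alternatives themselves use. Alternatives added after the data were seen were the single mice left out with limma-voom and in the regions with calls, and the mouse block in region pairs.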

Other observations

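In Olfactory bulb, 12 of the 41 motile cilia genes tested fell with age and 0 rose, beside 9.01% of all genes falling there. These genes come from the same libraries, so the 12 calls are not separate results. The fall of Rsph1 in this region lost its call without mouse 29 or mouse 49. Whether the 12 falls rest on such libraries was not tested. Rsph4a, of the radial spoke head, fell by 0.073 ± 0.017 log2 per month (edgeR adjusted p = 0.00143), Ccdc40, a ruler of the axoneme, by 0.060 ± 0.019 (0.0215), and Cfap126, also called Flattop, by 0.044 ± 0.012 (0.00749). Of 8 neuroblast and proliferation genes, 3 fell in the same region. In Cerebellum 2 of 29 motile cilia genes rose, Efhc2 by 0.047 ± 0.009 and Rsph10b by 0.021 ± 0.005, and Spag1, an assembly factor, fell by 0.0089 ± 0.0027, beside 10.5% of all genes rising and 8.41% falling there. In Hippocampus (anterior) 8 of 45 rose, beside 6.89% of all genes rising there. Without mouse 5 they numbered 1 of 42, and the share of all genes in that fit is not given here.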
